A study of Mus musculus with 81 samples.

Results

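The genes described here were the Myc network, the transcription factors that share the partner protein Max, together with the long noncoding RNA gene Pvt1. They were taken by symbol, as Myc, Mycn, Mycl, Max, Mxd1, Mxd4, Mxi1, Mnt, Mlx and Pvt1, and all 10 were found among the 51826 genes of the deposited table. RNA-seq was available for 81 libraries from 40 mice on a C57BL/6 x 129S4Sv/Jae background. Every animal, the controls included, was labelled with Plk4(Col1a1), rtTA(Rosa) and centrin-GFP(Rosa), that is, a Plk4 transgene at the Col1a1 locus with the doxycycline-responsive activator and a GFP-tagged centrin at Rosa. Centriole duplication is started by the kinase Plk4, and doxycycline induces the transgene. The thymic lymphomas came from 10 p53-/- mice that received no doxycycline (23 libraries), 9 p53-/- mice given doxycycline for 2 weeks from 30 days of age (18 libraries) and 12 p53+/- mice given the same treatment (31 libraries), called here the untreated p53-/-, the treated p53-/- and the treated p53+/- lymphomas. The reference was untreated normal thymus of 8 p53+/+ mice, 1 library each, and 1 further normal thymus came from a p53+/- mouse and entered no test. In 13 lymphomas several biopsies of the frozen tumour were sequenced, 54 libraries in all, and the biopsies of a mouse were summed for every comparison between groups. Tumour and normal thymus thus differed in p53 genotype as well as in tissue, and the ages at collection were not in the labels.

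Myc, Mycn and Mycl are basic helix-loop-helix leucine zipper proteins that bind DNA as dimers with Max, with a preference for the E-box CACGTG, and activate genes of ribosome production, metabolism and the cell cycle. The Mxd proteins (Mxd1, Mxd4 and Mxi1, also called Mxd2) and Mnt compete for Max and bring Sin3 repressor complexes to the same sites, and Mlx is a second, Max-like partner for Mxd1, Mxd4, Mnt and the Mondo proteins. In the thymus Myc drives the proliferation of immature T cells and is a known target of Notch1 signalling in T cell leukaemia, and Pvt1 is transcribed from the region just downstream of Myc.

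Library totals ranged from 1.03M to 26.87M expected counts. Trp53, the gene whose deletion defines the genotypes, was at 67.9 to 107 CPM (counts scaled to library size) in the normal thymuses and at 14.1 to 92.8, 25.6 to 74.1 and 17.7 to 70.9 CPM in the untreated p53-/-, the treated p53-/- and the treated p53+/- lymphomas. The labels do not say which part of the gene the allele lacks, so these counts check no genotype. The libraries fell into 2 sets that the labels do not name. Rpl10-ps1, a processed pseudogene of a ribosomal protein gene, was at 0 CPM in 15 libraries and at 77 to 798 CPM in the other 66. The 15 libraries without it were 7 of the 8 p53+/+ normal thymuses (all but mouse 624), the p53+/- normal thymus, the tumours of mice 562 and 266, and 1 biopsy each of mice 862, 881, 884, 899 and 908. No treated p53-/- library was among them, so the set and the difference between normal thymus and lymphoma could be told apart only through those few libraries. Summed thymic epithelium markers were at 129 to 2090 CPM in the normal thymuses and at 11.4 to 342 CPM in the lymphomas, and summed fat markers at 622 to 9730 CPM against 35.2 to 187 CPM. The tumour of mouse 881 had 126 CPM of T-lineage markers and 2720 CPM of B-lineage markers, whereas the other lymphomas had 1460 to 3980 CPM and at most 400 CPM, respectively. In such mixed tissue, fewer cells of a type and less RNA per cell cannot be told apart, and the part of cell composition in the differences from normal thymus was not tested.

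Against normal thymus, Myc rose and Mycl and Mxd1 fell in all 3 lymphoma groups, Mycn and Mnt fell in treated p53-/- lymphomas, and Pvt1 rose in untreated p53-/- and, close to the threshold, in treated p53+/- lymphomas. Max, Mlx, Mxd4 and Mxi1 passed the test in none of the 3 comparisons. All 10 genes passed the filter on low counts, and edgeR's quasi-likelihood test with Benjamini-Hochberg adjustment over 17841 genes called 4 of them in untreated p53-/-, 5 in the treated p53-/- and 4 in the treated p53+/- lymphomas. Of all genes tested, 40.7%, 52.1% and 50.9% were called in the same comparisons, so the share of network genes called was near the background. DESeq2 called 4, 6 and 4 of the 10, beside 43.9%, 55.2% and 53.8% of all genes. With only the libraries that hold Rpl10-ps1, which include 1 normal thymus, the edgeR calls were lost. Calls over all genes fell there too, and a fit with 1 normal library cannot weigh single genes. The 3 comparisons share the 8 normal thymuses and are not independent of each other. Their median log2 fold changes over the 10 genes were 0.01, -0.40 and -0.07, beside 0.08, -0.04 and -0.001 over all genes.

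**Figure D1:**
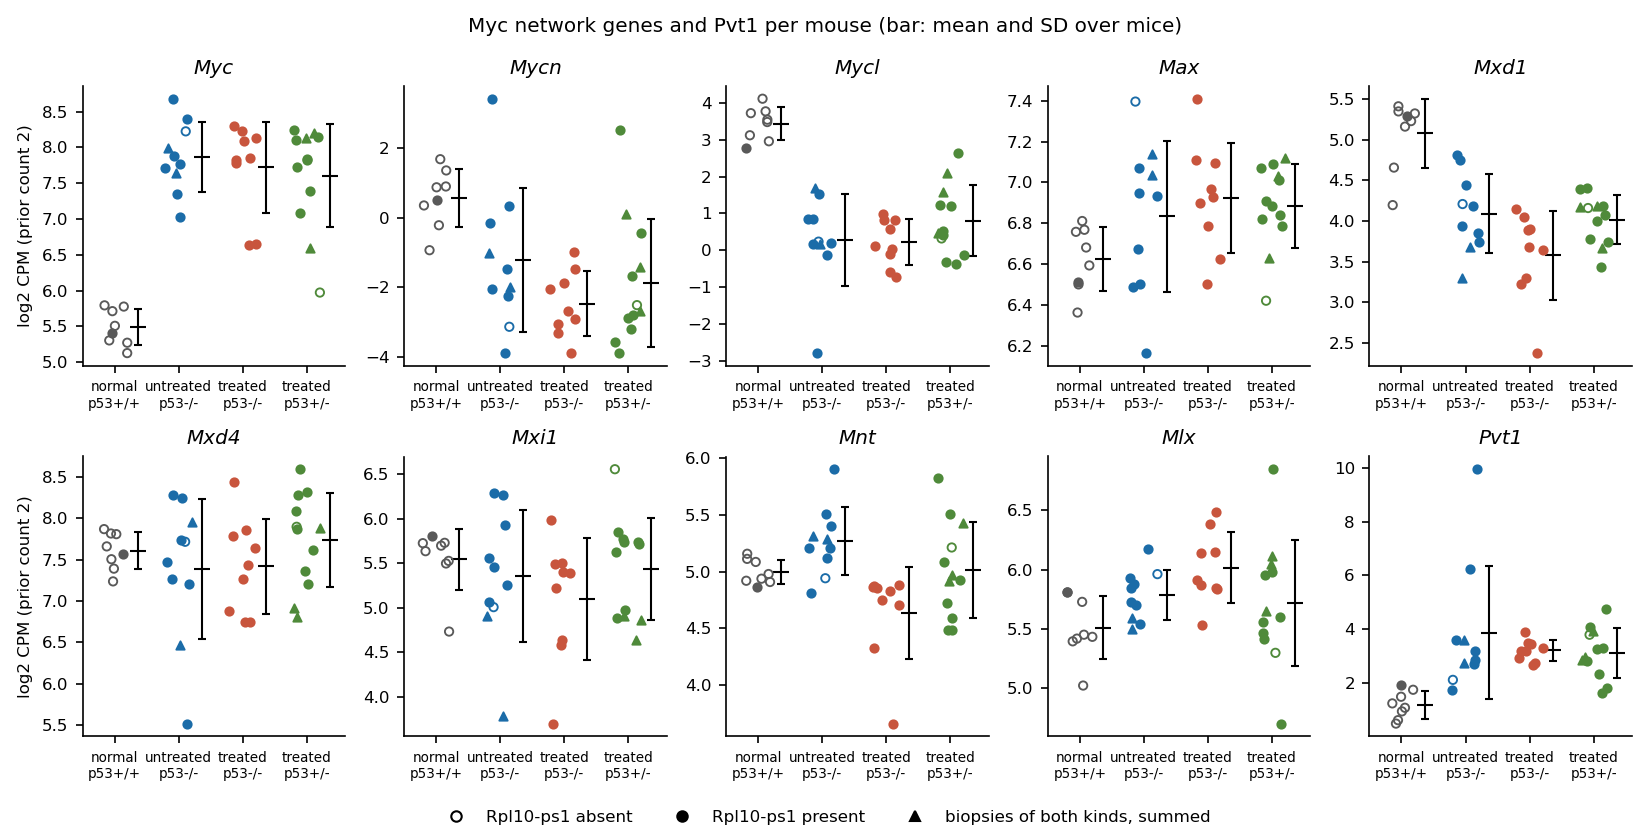
Expression of the 10 genes per mouse as log2 CPM (prior count 2) in normal p53+/+ thymus and the 3 lymphoma groups, with the mean and SD over mice beside each group. Open circles are mice whose library held no Rpl10-ps1, and triangles are mice with biopsies of both kinds. Every Myc value of the lymphomas lies above the normal thymuses and every Mycl value below, whereas the Mxd4 and Mxi1 values of the groups overlap.

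Myc (ENSMUSG00000022346, mm10 chromosome 15, 61985391 to 61990374, plus strand, protein coding), the central activator of the network, was at 34.9 to 55.4 CPM in the normal thymuses, with a median of 43.8. It was at 131 to 410 CPM in untreated p53-/- lymphomas, with a median of 226. It was at 99.7 to 314 CPM in treated p53-/- lymphomas (median 231) and at 62.7 to 303 CPM in treated p53+/- lymphomas (median 227). The 31 lymphomas thus all lay above the 8 normal thymuses, as did 4.32% of all genes tested (6.77%, 11.4% and 9.77% within the 3 groups), and the p53+/- normal thymus, at 52.8 CPM, lay within the normal range. The fitted log2 fold changes were 2.29 (SE 0.28, adjusted p = 7.10e-08, edgeR), 2.16 (SE 0.27, adjusted p = 5.65e-08, edgeR) and 2.06 (SE 0.26, adjusted p = 6.61e-08, edgeR). The group medians were 5.16 to 5.27 times that of normal thymus, while single tumours ranged from the 62.7 CPM of mouse 266 to the 410 CPM of mouse 202. Counts of tumours outside the normal range are also given for the genes below. Where these fell short of a whole group, no share over all genes was computed, and they are descriptions.

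The rise of Myc was measured within the library sets as well. Among libraries without Rpl10-ps1, the 7 normal thymuses were at 36.2 to 56.9 CPM and the 7 lymphoma libraries at 62.2 to 410 CPM, with log2 fold changes of 2.55 (adjusted p = 0.00578, edgeR) in untreated p53-/- and 2.41 (adjusted p = 0.000653, edgeR) in treated p53+/- lymphomas. Among libraries with it, the only normal thymus was at 42.7 CPM and the 65 lymphoma libraries at 55.9 to 445 CPM. The log2 fold changes there, 2.31 to 2.43, were of the same size and missed the threshold (adjusted p = 0.0752 to 0.109, edgeR), with 1 normal library assumed to vary like the tumours. With the set as a term in the model, the 3 values were 2.56, 2.44 and 2.42.

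Mycl (ENSMUSG00000028654, chromosome 4, 122995652 to 123002485), the family member known for its expression in dendritic cells, moved the opposite way. It was at 6.82 to 17.2 CPM in normal thymus (median 11.3) and at 0.0783 to 3.17, 0.544 to 1.92 and 0.701 to 6.19 CPM in the untreated p53-/-, the treated p53-/- and the treated p53+/- lymphomas, with medians of 1.1, 1.01 and 1.33. No lymphoma, with its biopsies summed, reached the lowest normal thymus, which 2.26% of all genes also showed (3.79%, 7.94% and 4.83% within the 3 groups). Mycl fell in all 3 groups, and the fitted log2 values were -3.12 (SE 0.46, adjusted p = 1.43e-06, edgeR), -3.39 (SE 0.47, adjusted p = 2.97e-07, edgeR) and -2.55 (SE 0.41, adjusted p = 3.66e-06, edgeR). They were -3.82 and -2.38 in untreated p53-/- and treated p53+/- lymphomas in the libraries without Rpl10-ps1 (adjusted p = 0.00196 and 0.00202, edgeR). In the libraries with it, which hold 1 normal thymus, the 3 values were smaller and missed the threshold, at -2.04, -2.41 and -1.49 (adjusted p = 0.325, 0.214 and 0.571, edgeR). Among lymphomas the highest level was in mouse 894, whose 4 biopsies were at 5.09 to 6.38 CPM. Mouse 881 varied most among its biopsies, from 0.664 to 7.38 CPM, and the highest of these lay above the lowest normal thymus library (6.88 CPM). Mycl varied at least 2-fold among the biopsies of 9 of the 12 tumours with Mycl counts in every biopsy, on low counts (median counting error 0.30 on the log2 scale).

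Mycn (ENSMUSG00000037169, chromosome 12, 12936093 to 12941914), best known from neuroblastoma, had the lowest level per kilobase of exon of the 3 in normal thymus, with a median of 0.475 CPM per kilobase beside 2.80 for Mycl and 16.1 for Myc. It was at 0.456 to 3.15 CPM in normal thymus (median 1.57), and the lymphoma medians were 0.238, 0.0887 and 0.0981 CPM. It was below every normal thymus in 25 of 31 lymphomas and above every one in 2, mouse 120 (untreated p53-/-) at 10.7 CPM and mouse 24 (treated p53+/-) at 5.68 CPM. Mycn fell by 3.72 (SE 1.13, adjusted p = 0.00616, edgeR) in treated p53-/- lymphomas, where the highest tumour had 0.436 CPM. The log2 fold change was -0.08 (SE 1.05, adjusted p = 0.963, edgeR) in untreated p53-/- lymphomas and -2.51 (adjusted p = 0.0275, edgeR) without mice 120 and 202. In treated p53+/- lymphomas it was -1.77 (SE 1.03, adjusted p = 0.153, edgeR). With limma voom on all biopsies, Mycn was called lower in those 2 groups as well, at -2.24 (adjusted p = 0.0318) and -3.31 (adjusted p = 0.000407). That fit took each biopsy as a library and the mouse as a block, with 1 shared correlation among biopsies of a mouse.

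Levels of different genes were set side by side per kilobase of exon. This scale is rough, because it counts every annotated exon of a gene, used or not (2.72 kb for Myc and 8.48 kb for Mxd4). On it, Myc made up 78.7 to 88.1% of the summed Myc, Mycn and Mycl level in normal thymus. In the lymphomas it made up 96.3 to 100%, with a median of 99.5%. The summed family level rose from a median of 18.9 CPM per kilobase in normal thymus to 84.2 in the lymphomas. The summed level of the antagonists Mxd1, Mxd4, Mxi1 and Mnt had medians of 42.8 and 41.1 CPM per kilobase, and that of Max 27.7 and 33.9. The ratio of the Myc family to the antagonists was 0.355 to 0.678 in the 8 normal thymuses (median 0.439) and 0.447 to 6.36 in the lymphomas (median 1.98), and it exceeded 1 in 28 of 31 tumours. The 3 tumours under 1 were mouse 266 at 0.447, mouse 869 at 0.905 and mouse 98 at 0.937, and the highest ratio was in mouse 120. These are RNA ratios over annotated exon length and say nothing of protein.

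Max (ENSMUSG00000059436, chromosome 12, 76937269 to 76962201), the shared partner, was at 82.2 to 112 CPM in normal thymus (median 99.5). The lymphoma medians were 123, 122 and 119 CPM, and 21 of 31 tumours lay above every normal thymus while mouse 202, at 71.6 CPM, lay below. The scaling factors behind the CPM values and those of the fits were computed separately, so this count and the fitted values need not match. The fitted log2 fold changes were 0.12 (SE 0.14, adjusted p = 0.517, edgeR), 0.14 (SE 0.13, adjusted p = 0.379, edgeR) and 0.08 (SE 0.13, adjusted p = 0.606, edgeR). Max was also the only one of the 10 genes called between the library sets in the fit across mice, being 0.41 higher on the log2 scale without Rpl10-ps1 (SE 0.12, adjusted p = 0.0190, edgeR). Of all genes tested 12.6% were called between the sets, so 1 of 10 was near the background. With the set as a term, Max rose in all 3 groups, by 0.46 (adjusted p = 0.0246, edgeR), 0.58 (adjusted p = 0.0104, edgeR) and 0.49 (adjusted p = 0.00909, edgeR). Whether Max changed against normal thymus therefore turned on how the library sets were handled.

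Mlx (ENSMUSG00000017801, chromosome 11, 101087277 to 101092207), the Max-like partner, was at 32.4 to 56 CPM in normal thymus (median 43.4), with lymphoma medians of 55.1, 60.2 and 49.2 CPM. It lay above every normal thymus in 18 of 31 tumours, 8 of them among the 9 treated p53-/- lymphomas, and below in 1. The log2 fold changes of 0.09, 0.34 and 0.13 (SE 0.17 to 0.18) missed the threshold (adjusted p = 0.715, 0.104 and 0.561, edgeR). In treated p53-/- lymphomas Mlx was called higher in 3 alternative fits, those with only the groups compared (adjusted p = 0.0217, edgeR), without mice 266 and 884, and without mouse 857. The highest level, 115 CPM, was again in mouse 894.

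**Figure D2:**
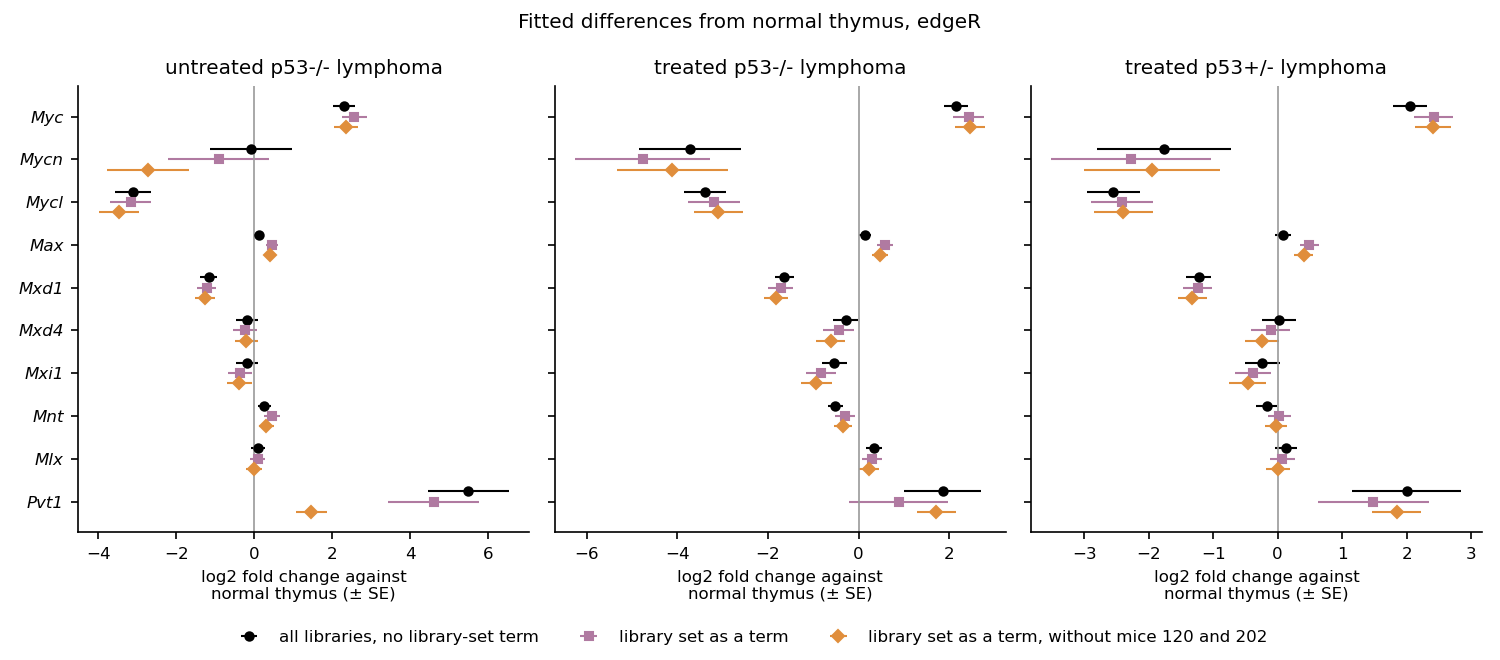
Fitted log2 fold changes against normal thymus (x axis) with their SE for the 10 genes in each lymphoma group, from edgeR on all libraries (black circles), with the library set as a term (purple squares) and with that term and without mice 120 and 202 (orange diamonds). Myc, Mycl and Mxd1 stay clear of 0 in all 3 fits and Max moves to 0.40 to 0.58 once the set is a term. Pvt1 in untreated p53-/- lymphomas moves from 5.50 to 1.47.

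Among the antagonists, Mxd1 (ENSMUSG00000001156, chromosome 6, 86647042 to 86669161), which is induced as cells stop dividing and differentiate, was the only one to fall in all 3 groups. It was at 18.3 to 42.5 CPM in normal thymus (median 38.4) and at 9.74 to 28.1, 5.11 to 17.6 and 10.7 to 21.1 CPM in the untreated p53-/-, the treated p53-/- and the treated p53+/- lymphomas. In 25 of 31 lymphomas it was below every normal thymus. The lowest normal value was that of mouse 387, the thymus with the fewest T-lineage markers (513 CPM) and the most fat markers. Mxd1 fell by 1.17 (SE 0.21, adjusted p = 3.88e-05, edgeR), 1.64 (SE 0.21, adjusted p = 1.08e-07, edgeR) and 1.23 (SE 0.20, adjusted p = 3.86e-06, edgeR) on the log2 scale. With the library set as a term it fell by 1.22, 1.72 and 1.24. Over all alternative fits its log2 fold change ran from -1.52 to -0.98, from -1.82 to -1.41 and from -1.37 to -1.03. The calls were lost only in the fits on libraries with Rpl10-ps1, which hold 1 normal thymus.

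Mnt (ENSMUSG00000000282, chromosome 11, 74830920 to 74845725), the antagonist that is expressed in both resting and dividing cells, had the narrowest normal range of the 10 genes on the log2 scale (SD 0.11), at 29.1 to 35.6 CPM. It had medians of 37.9 CPM in untreated p53-/-, 28.3 CPM in the treated p53-/- and 30.7 CPM in the treated p53+/- lymphomas. Of the 10 untreated p53-/- lymphomas 7 lay above every normal thymus, and of the 9 treated p53-/- lymphomas 7 lay below. The share of all genes with such counts was not computed, and a narrow normal range is easily left. Between these 2 groups edgeR did not call Mnt (adjusted p = 0.214), while DESeq2 did (adjusted p = 0.0200). Mnt fell by 0.51 (SE 0.17, adjusted p = 0.0101, edgeR) in treated p53-/- lymphomas. That call was lost without mouse 857, which had the lowest level at 12.6 CPM (-0.31, adjusted p = 0.0966, edgeR), and with the library set as a term (-0.30, adjusted p = 0.279, edgeR). The 4 biopsies of mouse 857 were shallow, with totals of 1.03M to 5.03M expected counts and 10 to 65 Mnt counts each. In untreated p53-/- lymphomas the log2 fold change was 0.26 (SE 0.17, adjusted p = 0.234, edgeR).

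Mxd4 (ENSMUSG00000037235, chromosome 5, 34173883 to 34187720) was at 151 to 234 CPM in normal thymus (median 196) and ranged from 45.7 CPM in mouse 120 to 386 CPM in mouse 309 among the lymphomas. It was above every normal thymus in 10 tumours and below in 9. Mxi1 (ENSMUSG00000025025, chromosome 19, 53310518 to 53375810) was at 26.6 to 55.9 CPM in normal thymus and at 13 CPM (mouse 663) to 94.1 CPM (mouse 266) in the lymphomas, above every normal thymus in 6 and below in 5. Both spread over a wider range in tumours than in normal thymus with no shift that passed the test. Their log2 fold changes were -0.18, -0.28 and 0.03 for Mxd4 (adjusted p = 0.408 to 0.946, edgeR) and -0.18, -0.54 and -0.24 for Mxi1 (adjusted p = 0.107 to 0.645, edgeR). With the library set as a term, Mxi1 fell by 0.83 in treated p53-/- lymphomas (adjusted p = 0.0487, edgeR), and limma voom called it lower there too.

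The E-box CACGTG, which reads the same on both strands, was looked for in the 250 bases before each start site in the RefSeq promoter table (GRCm38.p6), where 8 of the 10 genes were matched. It stood in 3 of those 8 genes (37.5%), Mxd4, Mnt and Mlx, beside 6.86% of all 27025 genes in the table. The windows around it are shown because they place the network's own binding motif before genes of the network, in capitals within 60 bases on the coding strand, and a match is a description of letters, not a binding site.
Mxd4, chr5:34187897-34187956, minus strand: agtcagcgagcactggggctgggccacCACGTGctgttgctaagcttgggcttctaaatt
Mnt, chr11:74830774-74830833, plus strand: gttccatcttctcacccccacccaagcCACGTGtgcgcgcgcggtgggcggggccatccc
Mlx, chr11:101087223-101087282, plus strand: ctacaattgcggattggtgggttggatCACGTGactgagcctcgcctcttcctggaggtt
The motif began 219, 123 and 40 bases before the start site. The levels of these 3 genes overlapped between normal thymus and lymphoma, as given above.

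Pvt1 (ENSMUSG00000097039, chromosome 15, 62037986 to 62378096, plus strand, lincRNA), which begins 47.6 kb past the end of Myc, was at 1.33 to 3.75 CPM in normal thymus (median 2.17). The lymphoma medians were 8.08, 9.13 and 8.71 CPM, and 28 of 31 tumours were above every normal thymus, a count whose share over all genes was not computed. Among them were all 9 treated p53-/- lymphomas, which 11.4% of all genes tested also showed. A pair of untreated p53-/- lymphomas stood far above the rest, mouse 120 at 986 CPM and mouse 202 at 75.9 CPM, while the other 8 of that group ran from 3.27 to 12.1 CPM. The highest treated tumour was mouse 280 at 27 CPM.

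The fitted size of the Pvt1 rise depended on those tumours. Pvt1 rose by 5.50 on the log2 scale (SE 1.03, adjusted p = 6.06e-05, edgeR) in untreated p53-/- lymphomas. Without mouse 120 the value was 2.61 (adjusted p = 0.000249, edgeR) and without mice 120 and 202 it was 1.59 (adjusted p = 0.00119, edgeR). In treated p53-/- lymphomas the value was 1.86 (SE 0.85, adjusted p = 0.0651, edgeR) with them in the fit, through the shared spread, and 1.84 (adjusted p = 7.21e-05, edgeR) without. In treated p53+/- lymphomas it was 2.00 (SE 0.85, adjusted p = 0.0478, edgeR) with them and 1.96 (adjusted p = 3.13e-05, edgeR) without. The mean log2 CPM of the mice, which 1 tumour moves less, differed from normal thymus by 2.68, 2.02 and 1.94 (two-sided exact permutation test, p = 0.00064, 4.11e-05 and 0.000103, or 0.00128, 0.000247 and 0.000309 adjusted over the 6 comparisons of Pvt1). With the library set as a term and without both mice, Pvt1 rose by 1.47, 1.71 and 1.85 (adjusted p = 0.00454, 0.00246 and 0.000194, edgeR). With the set term and both mice kept, the call in treated p53+/- lymphomas was lost (adjusted p = 0.165, edgeR), and it held in 15 of 23 alternative fits. Among libraries without Rpl10-ps1, Pvt1 rose by 1.85 in untreated p53-/- and by 2.15 in treated p53+/- lymphomas (adjusted p = 0.0206 and 0.00162, edgeR). Among libraries with it and without both mice, the 3 values were 1.11, 1.23 and 1.31 and missed the threshold (adjusted p = 0.609, 0.552 and 0.568, edgeR), and the only normal thymus there had the highest normal Pvt1, 3.79 CPM.

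In every multifocal biopsy Pvt1 was above the normal thymuses. The 4 biopsies of mouse 202 were at 67.4 to 80.8 CPM, so its high level was shared by all sampled sites of that tumour. Mice 120 and 202 also had the highest Myc of the untreated group, at 338 and 410 CPM, and low thymocyte markers, 194 and 51.2 CPM summed against a group median of 1410 CPM. Mouse 881 of the same group had 104 CPM of thymocyte markers with Pvt1 at 12.1 CPM. The part of these in the Pvt1 level was not tested.

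None of the 9 network genes tested passed the threshold between lymphoma groups, where edgeR called 0 of 16387 genes (0.0% called, with 1915, 866 and 1039 genes at an unadjusted p under 0.05). Mycn did not pass the filter in that fit. By the labels 9 of 10 untreated p53-/-, 4 of 9 treated p53-/- and 3 of 12 treated p53+/- mice were male. Sex and group were thus only partly separable, and the permutation test of Pvt1 left sex out. Myc differed by -0.11 (SE 0.30) between treated and untreated p53-/- lymphomas, by -0.10 (SE 0.25) for treated p53+/- against treated p53-/- lymphomas, and by -0.21 (SE 0.30) between treated p53+/- and untreated p53-/- lymphomas, on the log2 scale. The largest network differences apart from Pvt1 were those of Mycl, 0.85 (SE 0.45) for treated p53+/- against treated p53-/- lymphomas, and of Mnt, -0.80 (SE 0.20, adjusted p = 0.214, edgeR) between treated and untreated p53-/- lymphomas. DESeq2, which called 75 genes (0.458%) in the latter comparison, called Mnt there (-0.78, adjusted p = 0.0200). In the other 2 comparisons it called 0.0732% and 0.0183% of genes and no network gene. Between treated and untreated p53-/- lymphomas Pvt1 differed by -3.67 (SE 1.13, adjusted p = 0.279, edgeR) with mice 120 and 202 and by 0.21 without them, and the exact permutation test of log2 CPM over all mice gave p = 0.521 for a difference of -0.67. For treated p53+/- against untreated p53-/- lymphomas the Pvt1 values were -3.53 with both mice (adjusted p = 0.776, edgeR) and 0.31 without.

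Biopsies of 1 tumour were more alike than different tumours were for 9 of the 10 genes, Mycn being the exception. The SD of log2 CPM within tumours was 0.38 for Myc, 0.25 for Max and 0.26 for Pvt1, and between tumours of a group it was 0.75, 0.38 and 0.93. Counting error at these depths had a median of 0.02, 0.04 and 0.12 for the same genes, and separate libraries also differ in their preparation, which was not measured. For Mycn the counting error was 0.79, close to its within-tumour SD of 0.96, and 8 of 13 tumours had 5 or fewer Mycn counts in every biopsy. Single biopsies stood apart in mice 202 (0 to 60 counts), 884 (1 to 26 counts) and 869 (0 to 21 counts).

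Myc varied at least 2-fold among the biopsies of 4 of 13 tumours. In mouse 884 the 4 biopsies were at 155, 55.9, 59 and 56.1 CPM, of which the last 3 lay within the range of the normal thymus libraries, 36.2 to 56.9 CPM, or just above it. In mouse 899 a biopsy stood at 301 CPM beside 4 others at 160 to 167 CPM. In mouse 894 all 4 biopsies lay between 253 and 269 CPM. The high biopsies of mice 884 and 899 were the ones without Rpl10-ps1.

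In each of the 5 tumours with libraries of both sets, the biopsy without Rpl10-ps1 had the highest Myc, Max and Mnt of its tumour. The mean log2 differences from the other biopsies were 0.92 (SD 0.31) for Myc, 0.60 (SD 0.18) for Max and 0.34 (SD 0.11) for Mnt, over 5 tumours. Pvt1 differed by -0.14 (SD 0.15) and Mxd4 by 0.01 (SD 0.38). With only libraries that held Rpl10-ps1, the within-tumour SD of Myc was 0.27 and that of Max 0.17, and 1 of 13 tumours varied at least 2-fold in Myc. That tumour was mouse 869, with biopsies at 83.2, 158, 89.6 and 74.1 CPM.

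**Figure D3:**
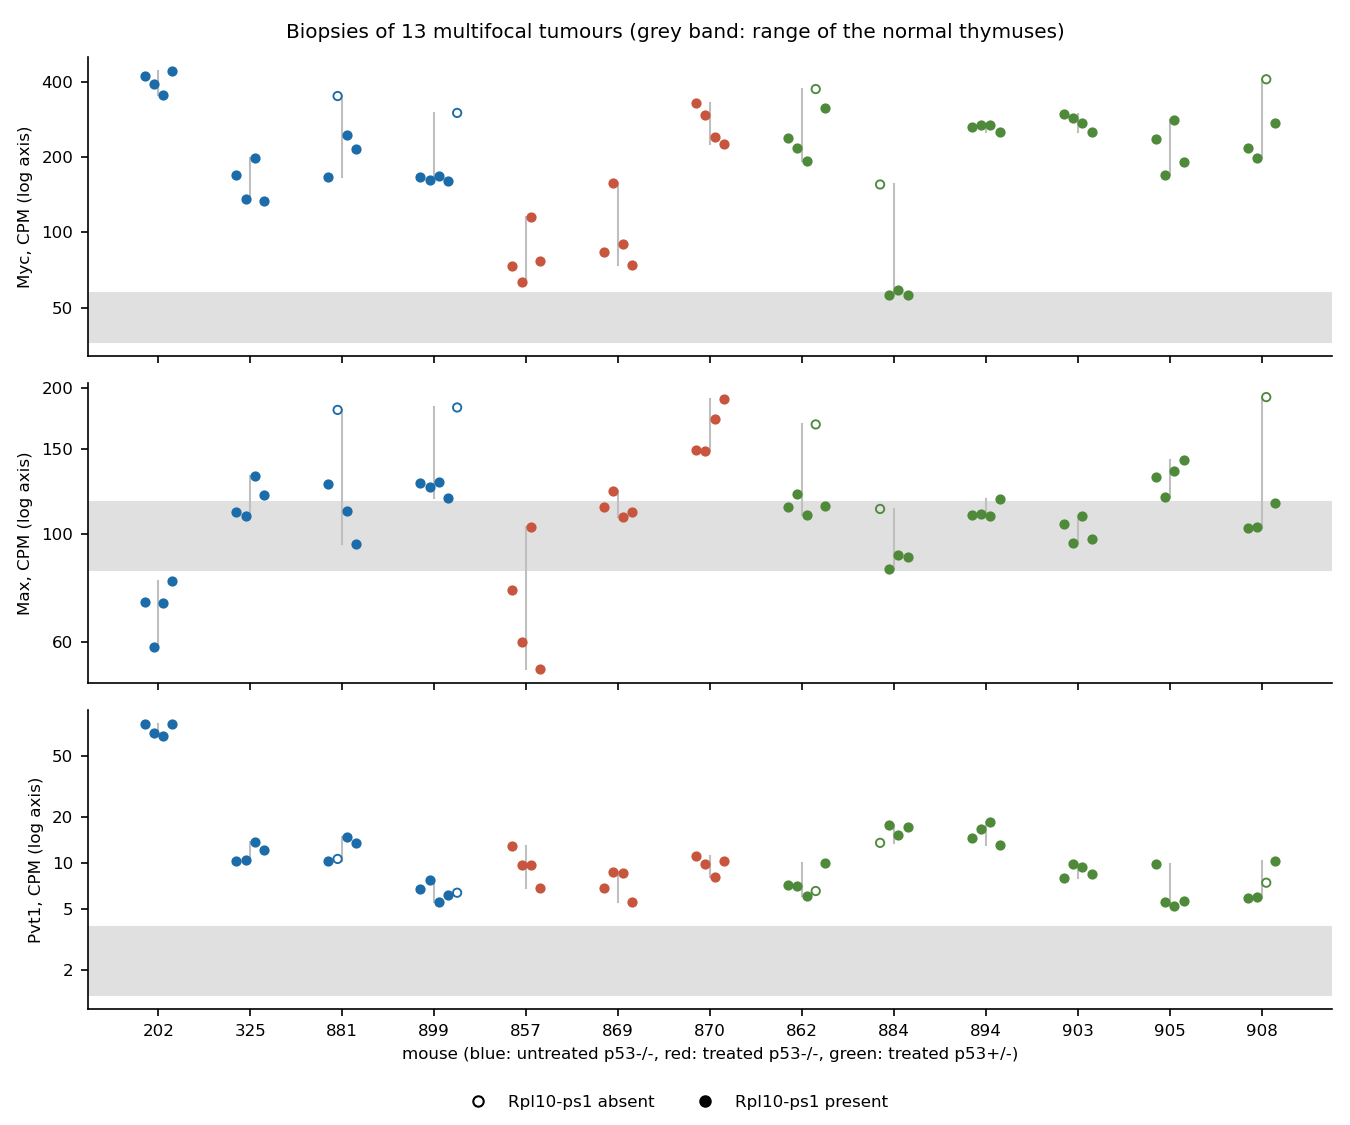
Myc, Max and Pvt1 in every biopsy of the 13 multifocal tumours, in CPM on log axes, 1 column per mouse. Open circles are biopsies without Rpl10-ps1, and the grey band is the range of the 8 p53+/+ normal thymus libraries. The open circles are the highest Myc and Max of their tumours, whereas Pvt1 lies above the band in all 54 biopsies and is highest in mouse 202.

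Within tumours, the deviation of a biopsy from its tumour mean was compared between genes over the 54 biopsies, which share animals and libraries, and r is given as a description. Myc moved with Mxi1 (r = 0.62, and 0.60 over the 49 biopsies with Rpl10-ps1). It moved with Max at r = 0.64, which became 0.30 over the 49, and with Mnt at 0.38, which became 0.11. Myc and Pvt1 had r = 0.16, and 0.46 over the 49.

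Across mice, none of 15 relations tested within the lymphoma groups passed Benjamini-Hochberg adjustment (lowest adjusted p = 0.489 for Pearson's r, permutation test). Pvt1 and Myc had r = 0.64 and rho = 0.53 over the 10 untreated p53-/- mice (permutation p = 0.0489 and 0.123), and r was 0.18 without mice 120 and 202, on which the relation rested. In treated p53-/- and treated p53+/- lymphomas r was 0.06 (rho 0.03, exact permutation p = 0.877 and 0.948) and -0.17 (rho 0.00, permutation p = 0.6 and 1.0). Myc and the mean of 16 nucleolar target genes had r = 0.43, -0.23 and 0.48 in the 3 groups (permutation p = 0.220, 0.546 and 0.113, exact for the 9 treated p53-/- mice). Their rho was 0.32, 0.08 and 0.57 (permutation p = 0.369, 0.843 and 0.0593), and without the 2 mice farthest from the median of Myc r was -0.23, 0.30 and 0.58. The sign depended on the setting, with r = 0.45 in treated p53-/- lymphomas with no scaling factors (rho 0.77, exact permutation p = 0.224 and 0.0214, before adjustment) and r = -0.29 in treated p53+/- lymphomas in libraries with Rpl10-ps1 only.

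Chromosome 15, which holds Myc and Pvt1, was read as the median log2 ratio of its 574 other expressed genes to normal thymus, centred on the autosomal genes of each mouse. It was -0.02 to 0.02 in the 8 normal thymuses. The medians were 0.28 in untreated p53-/-, 0.37 in the treated p53-/- and 0.42 in the treated p53+/- lymphomas, with values up to 0.73. On the same scale the Myc ratio had medians of 2.18, 2.21 and 2.21, above those of the rest of its chromosome. Mouse 266 was the exception, with a Myc ratio of 0.39 under its chromosome 15 median of 0.66, and in mouse 884 the values were 1.04 and 0.73. The chromosome 15 median and Myc had r = -0.42, -0.06 and -0.52 in the 3 groups (permutation p = 0.228, 0.853 and 0.0813, or 0.489, 0.877 and 0.489 adjusted over the 15 relations) and rho = -0.32, 0.10 and -0.27 (permutation p = 0.366, 0.810 and 0.388). Without the 2 mice farthest in the chromosome 15 median r was -0.37, 0.38 and -0.51. Mice 884 and 266, with chromosome 15 medians among the highest, had the lowest Myc of their group, whereas mouse 903, with a median of 0.69, had the highest. Within 1 Mb of Myc only 1 other annotated gene passed the filter, the pseudogene Tsg101-ps (990.3 kb away), with log2 fold changes of -0.28, 0.07 and -0.10 (adjusted p = 0.315, 0.815 and 0.710, edgeR).

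**Figure D4:**
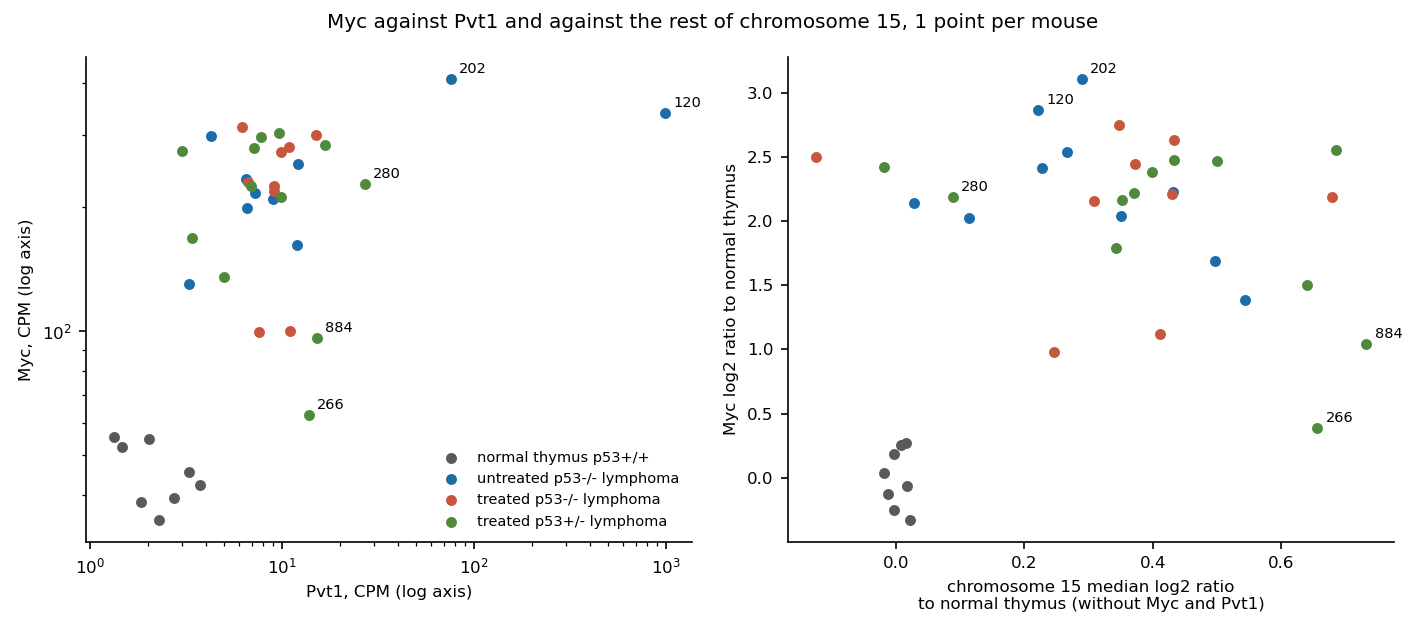
Myc against Pvt1 in CPM on log axes (left) and the log2 ratio of Myc to normal thymus against the median log2 ratio of the other chromosome 15 genes (right), 1 point per mouse, coloured by group, with 5 mice numbered. Mice 120 and 202 stand apart in Pvt1, and most tumours lie at Myc ratios near 2 with chromosome 15 medians of 0 to 0.73.

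The genes whose levels followed Myc most closely over the 31 lymphomas, after each group's mean was subtracted and among 11142 genes, were Dtx3l (r = 0.79), Sacm1l (r = 0.76) and Tmem186 (r = 0.76), and without mice 120 and 202 their r was 0.82, 0.76 and 0.78. For Pvt1 they were Vps26b (r = 0.81), Etfrf1 (r = 0.78) and Rexo2 (r = 0.78), and without those mice r was 0.41, 0.50 and 0.49. These are descriptions over tumours that share groups and the library sets.

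The known targets of Myc were described by lists. All 16 nucleolar and ribosome production genes rose in all 3 groups, with median log2 fold changes of 1.69, 1.58 and 1.60. Gnl3, the nucleolar GTPase nucleostemin, rose by 2.26, 2.75 and 2.59 (SE 0.21 in each, adjusted p at most 3.63e-10, edgeR), and Nop58, a core protein of small nucleolar RNPs, rose by 2.22, 2.43 and 2.41. Of 10 metabolic genes 9 rose in each group. Tfrc, the transferrin receptor, rose by 2.96, 4.05 and 3.97, and Cad, which starts pyrimidine synthesis, by 2.83, 2.60 and 2.74. Hk2, a hexokinase of glycolysis, went the other way and fell by 1.07 and 1.09 in treated p53-/- and treated p53+/- lymphomas (adjusted p = 0.0252 and 0.0138, edgeR).

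The background for these counts was that 23.2%, 25.4% and 25.6% of all genes rose and 17.6%, 26.7% and 25.3% fell. Of 6 cell cycle targets 3, 4 and 3 rose, led by the phosphatase gene Cdc25a (1.23, 1.5 and 1.29) and the transcription factor gene E2f1 (1.47, 1.13 and 1.36). Of 6 genes known to be repressed by Myc 4 fell in each group. The cyclin-dependent kinase inhibitor genes Cdkn1a, itself a p53 target, and Cdkn1b fell by 1.75, 1.96 and 1.30 and by 1.21, 1.54 and 1.11. Of 12 proliferation genes 11 rose in each group, among them Tyms (1.33, 2.16 and 2.10) and Ccnb1 (1.48, 1.96 and 1.76). Proliferation genes thus rose in the same comparisons as the Myc targets, and their part in the target counts was not tested. With the library set as a term, the nucleolar list kept 16 of 16 and 3 of 6 repressed targets fell, in each of the 3 groups. Of the metabolic genes 9 rose in each group, of the cell cycle targets 3, 2 and 3, and of the proliferation genes 10, 11 and 12. In that fit 3655, 3487 and 4151 of all 17799 genes rose and 2407, 2685 and 3340 fell.

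**Figure D5:**
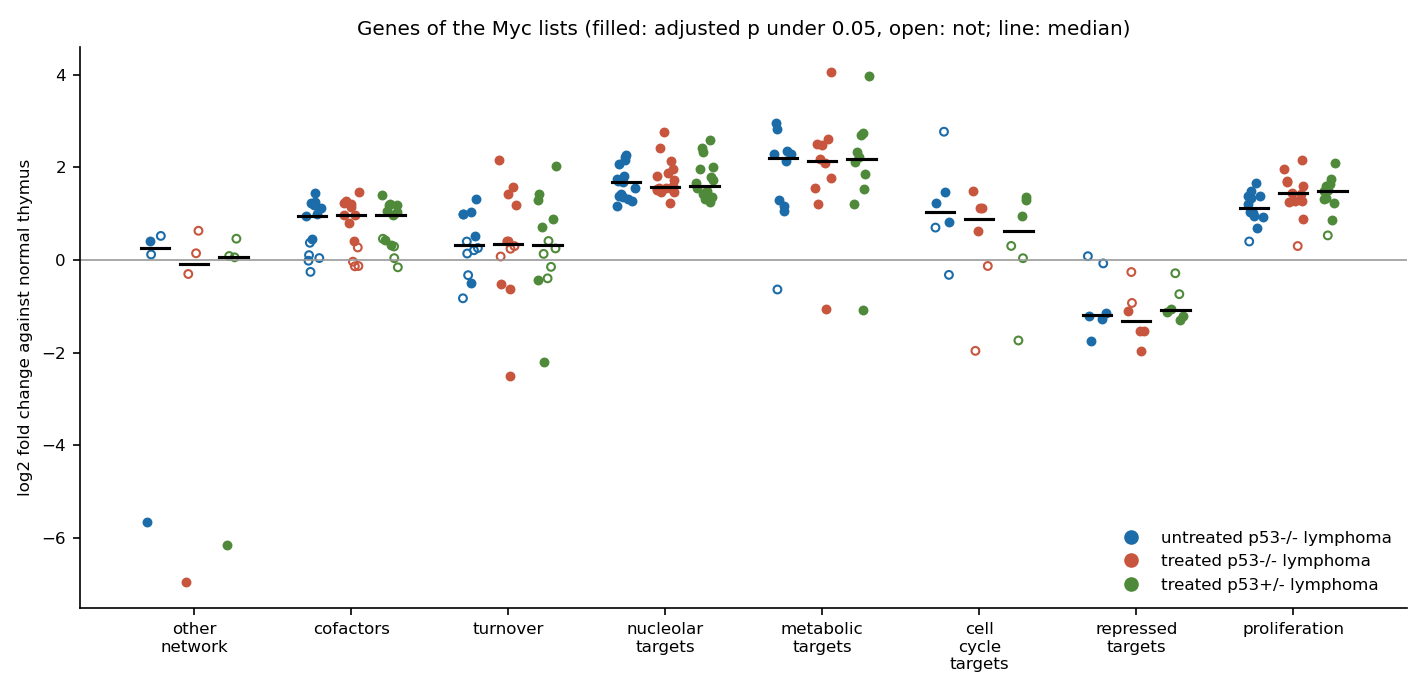
Log2 fold changes against normal thymus of the genes in 8 lists, 1 point per gene and lymphoma group, filled where the adjusted p was under 0.05 and open where it was not, with a line at each median. The nucleolar genes all lie between 1 and 3, most metabolic and proliferation genes lie above 0 and most repressed targets lie below.

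The E-box stood in the 250 bases before the start of 1 of 12 nucleolar genes matched (8.33%) and 2 of 9 metabolic genes (22.2%), beside 6.86% of all genes. The windows of those 3 genes, which rose with Myc, are shown on the coding strand with the first motif in capitals. It began 60, 145 and 18 bases before the start site, and Ldha held a second one. A second start site listed for Nme1 also had the motif before it.
Nop2, chr6:125131796-125131855, plus strand: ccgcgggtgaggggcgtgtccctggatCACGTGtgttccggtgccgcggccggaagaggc
Ldha, chr7:46845632-46845691, plus strand: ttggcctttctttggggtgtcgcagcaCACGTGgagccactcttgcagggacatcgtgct
Nme1, chr11:93968273-93968317, minus strand: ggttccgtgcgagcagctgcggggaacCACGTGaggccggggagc
Nop2, a ribosomal RNA methyltransferase gene, rose by 1.68, 1.54 and 1.42 (SE 0.18 to 0.19). Ldha, lactate dehydrogenase A, rose by 1.16, 1.54 and 1.54, and Nme1, a nucleoside diphosphate kinase gene, by 1.30, 1.78 and 1.86. The matched nucleolar and metabolic genes without the motif in this window rose as well, except Hk2.

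Among the remaining genes of the network, Mlxipl (also called ChREBP), a glucose-responsive partner of Mlx, fell by 5.66, 6.95 and 6.15 (SE 0.63 to 0.76, adjusted p at most 5.92e-08, edgeR), and the summed fat markers fell with it, as given above, with their part in it not tested. Mga, a repressor that also binds Max, rose by 0.40 in untreated p53-/- lymphomas (adjusted p = 0.0302, edgeR), and the log2 fold changes in the other 2 groups were 0.15 and 0.09. Mxd3 and Mlxip passed the test in no group.

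Of 13 cofactors through which Myc and the Mxd proteins act, 8, 9 and 9 rose and 0 fell, beside 23.2%, 25.4% and 25.6% of all genes that rose. The acetyltransferase gene Kat2a rose by 1.45, 1.22 and 1.19, and Trrap, the scaffold that brings it to Myc, by 1.23, 1.47 and 1.05. Of 12 genes that set the turnover of Myc protein 5 rose in each group and 1, 3 and 2 fell, and the share that fell was at or under the 17.6%, 26.7% and 25.3% of all genes. Skp2, a ubiquitin ligase subunit gene that lies on chromosome 15, rose by 1.33, 2.15 and 2.04, and C330027C09Rik (Cip2a), an inhibitor of the phosphatase that destabilises Myc, by 1.0, 1.58 and 1.30. Stub1, a ubiquitin ligase gene, fell by 0.50, 0.63 and 0.43. Bin1, a Myc-interacting adaptor gene, fell by 2.50 and 2.20 in treated p53-/- and treated p53+/- lymphomas, and its value in untreated p53-/- lymphomas was -0.83 (adjusted p = 0.144, edgeR).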

How the data were processed

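The authors' deposited table holds RSEM expected counts per gene for 81 libraries. Per the submitters' processing notes, CASAVA 1.8, fastp, STAR 2.7.2b, RSEM 1.1.17 and mm10 were used; RNA came from frozen biopsies (AllPrep), per the labels' protocols. Of the table's cells 14.25% were not whole, and counts were rounded after the biopsies of a mouse were summed. Positions come from GENCODE M21 (99.63% of gene identifiers matched). RSEM shares reads among similar sequences, so pseudogene levels depend on that step.

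edgeR 4.0.16 (TMM factors, filterByExpr, robust quasi-likelihood fit, labelled sex as covariate, R 4.3.3) was fitted on normal p53+/+ thymus with the 3 lymphoma groups, and on the lymphoma groups alone, with adjusted p under 0.05 over all genes as the threshold. CPM values use the TMM factors, and log2 CPM has a prior count of 2. In 3 mice the labelled sex went against sex-linked expression, and fits without them were among the alternatives. For the library-set term, a mouse with biopsies of both sets entered by its biopsy without Rpl10-ps1 alone. The fits were tested on simulated data.

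The members and lists were chosen with earlier results of these data known. Within each list, the 2 largest rises and 2 largest falls by mean log2 fold change among called genes were named, plus filtered genes within 1 Mb of Myc and the 3 genes most like Myc and Pvt1. Nop2, Ldha and Nme1 were named for their motif, and Rpl10-ps1, Trp53 and Notch1 after their values were seen. The settings on library sets and on mice 120, 202, 266, 857, 881 and 884 were added after seeing the data, and the motif search was made in RefSeq promoters of GRCm38.p6.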

Additional observations from a re-analysis of the deposited data

Results flagged for a closer look

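Of 30 sets of values tested (10 genes in the groups of 8, 9 and 10 mice), 3 had a mouse set apart from the others by a large share of the range of log2 CPM, where chance gives about 1 in 20. Mxi1 in the normal thymus of mouse 387, at 26.6 CPM, was separated from the next mouse by 0.713 of the range, and that thymus also had the most fat and B-lineage markers of its group. Mycl in the untreated p53-/- lymphoma of mouse 637, at 0.0783 CPM, was separated by 0.592 of the range. That value rests on 1 Mycl count, so its log2 distance depends on the prior count. Mnt in the treated p53-/- lymphoma of mouse 857, at 12.6 CPM, was separated by 0.544 of the range. Its 4 biopsies were at 8.69 to 14.2 CPM, on 10 to 65 counts.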

How the results depend on the processing

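With the 66 libraries that hold Rpl10-ps1, which leave 1 normal thymus, the calls in each of the 3 comparisons with normal thymus were lost. With all libraries 4, 5 and 4 of the 10 genes were called. The calls were lost as well when mice 120 and 202 were also left out. With those 66 libraries edgeR also called far fewer genes in all, and 1 normal library is part of that construction. DESeq2 called 1 network gene, Mnt, between treated and untreated p53-/- lymphomas, where edgeR called 0. Between lymphoma groups, taken in the order treated against untreated p53-/-, treated p53+/- against treated p53-/- and treated p53+/- against untreated p53-/-, edgeR called 0 genes in all, DESeq2 75, 12 and 3, and limma voom 39, 1 and 1, while in the last edgeR called 21 with no sex term and 7 with no filter. No other alternative moved a count of network genes called by over 1.5 times, and no called value changed sign. The Pvt1 call in treated p53+/- lymphomas was lost with RLE factors, no scaling (adjusted p = 0.0633), no filter (0.0837), single-biopsy tumours (0.105), without mice 266 and 884 (0.0550) and with the set term (0.165); the cause was not tested. In treated p53-/- lymphomas Pvt1 was called by DESeq2 (adjusted p = 0.000300), by limma voom (0.0149), with only the groups compared (1.73e-05) and without mouse 120 (0.00236). Calls higher and lower were 4137 and 3133 genes in untreated p53-/- and 4565 and 4511 in treated p53+/- lymphomas. They were 3107 and 3549, and 3782 and 4886, with no scaling, which moved the median of all genes from 0.08 to -0.05 and from -0.001 to -0.12. Without normal mouse 387 they were 4672 and 2597, and 4974 and 3325. None of the 15 relations passed adjustment under any setting, and the within-tumour spread was the smaller for 9 of 10 genes in each of the 4 alternatives run for it. No paired analysis was possible because the groups share no replicate numbers. Depth limits Mycn most, at medians under 1 CPM in the lymphoma groups.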

Other observations

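Notch1, chosen after its values were seen, was at 61.5 to 130 CPM in the normal thymuses. It had medians of 750, 821 and 907 CPM in the untreated p53-/-, the treated p53-/- and the treated p53+/- lymphomas. In 6 lymphomas it was at or near the normal range or under it, at 17.1 CPM in mouse 120, 21.5 in mouse 266, 45.5 in mouse 881, 50.5 in mouse 202, 54.1 in mouse 884 and 131 in mouse 869. These 6 tumours held both ends of the Myc range. Myc was at 338, 255 and 410 CPM in mice 120, 881 and 202, of which mice 120 and 202 had the highest Pvt1 of all tumours and mouse 881 the B-lineage markers. In mice 266, 884 and 869 Myc was at 62.7, 96.2 and 99.7 CPM, the lowest 3 values of the 31 lymphomas, next to mouse 857 at 100.1 CPM with 674 CPM of Notch1. No test was made of this pattern.

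Mouse 120 also had the highest Mycn (10.7 CPM) and the lowest Mxd4 (45.7 CPM) of all lymphomas. Mouse 202, with the highest Myc and Mnt (59.6 CPM), had the lowest Max (71.6 CPM).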
